A study of Mus musculus with 6 samples.

Results

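The Notch receptors Notch1, Notch3 and Notch4, the ligands Dll4, Jag1 and Jag2 and the target genes Hes1, Hey1, Hey2 and Heyl were followed in embryoid bodies formed by wild-type and Tet-deficient mouse embryonic stem cells. The 10 genes were chosen with earlier results of these data known. Their probes were found by matching the accession printed for each array probe to the mouse RefSeq gene of that symbol, without use of any measured value. The genes had 11 probes among the 55681 of the array, 2 of them for Notch1 and 1 for every other gene. Embryoid bodies are clumps of stem cells that differentiate into many tissues at once. These were kept for 2 days in hanging drops and for another 8 days in suspension, without the self-renewal factor LIF. WT was 1 line, and TKO_26 and TKO_29 (TKO#26 and TKO#29 in the titles) were 2 independent lines with Tet1, Tet2 and Tet3 knocked out. All 3 lines had a mixed 129/C57BL6 background. Total RNA of each line was measured on 2 arrays of 1 colour, 6 arrays in all. The series names the arrays of a line technical replicas, so p-values over arrays compare these lines and not the genotypes. WT rests on 1 line and TKO on 2, and peculiarities of the single WT line and effects of the genotype cannot be told apart.

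Notch is a receptor that is cut when a ligand of the Delta or Jagged family on a neighbouring cell binds it. The released intracellular part enters the nucleus and, with the DNA-binding protein RBPJ, activates genes of the Hes and Hey families, which encode transcriptional repressors. The pathway is known for arterial and sprouting decisions in endothelium, for the identity of the mural cells around vessels, for heart development, for somite segmentation and for the maintenance of neural progenitors. TET enzymes oxidise methylated cytosine, mostly where cytosine is followed by guanine (CpG), and no DNA methylation was measured in this series.

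The share of spots well above background ran from 38.4% to 55.8% per array. TKO_26 replicate 1 was the array with 38.4%, and on it the lowest signal well above background was 86.5, against 21.4 to 43.1 on the other arrays. Tet1 and Tet2 fell on their brighter probes in both lines (Tet1 by 1.02 and 1.69, Tet2 by 1.09 and 1.90 on the log2 scale in TKO_26 and TKO_29). The other Tet1 probe differed by -0.08 and 0.23. The brightest Tet3 probe did not pass the test (1.05 and -0.62). The remaining Tet3 probes, which did not stand for the gene, lay lower in both lines. They were not above background on either TKO_26 array, so that order is not read as a difference. "Rose" and "fell" are kept for genes at least 2-fold above or below WT in TKO_26 and TKO_29 alike. The adjusted p (limma, Benjamini-Hochberg over all genes) also had to be under 0.05 in each of these lines. By this rule 6.59% of the 21421 genes and unnamed features tested fell and 4.05% rose, so that rises made up 38.0% of the calls, or 25.5% with normexp background correction, with a median log2 difference of -0.04 over all of them.

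Among the 10 genes Notch4, Hey1 and Heyl fell and 0 rose. In TKO_29 the fall was 4.18-fold for Hey1, 5.26-fold for Notch4 and 8.11-fold for Heyl. In TKO_26 it was 3.33-fold for Hey1, and the bounds were at least 7.48-fold for Notch4 and at least 4.82-fold for Heyl. These bounds depend on the signal floor assumed for arrays not above background. Without TKO_26 replicate 1, which was not above background for Notch4, the log2 difference of Notch4 in TKO_26 was -2.37, near the -2.40 of TKO_29. The difference of Jag1 passed 2-fold in TKO_26 and not in TKO_29, and so did that of Hey2, which in TKO_29 lay at the WT level. Notch1, Notch3, Jag2 and Hes1 did not pass in either line. Dll4 was above background on 1 WT array and no TKO array and did not enter the test, so that 3 of 9 genes tested fell, read against the 6.59% of all genes. The median difference of the 9 was -0.61. Levels are log2 signals relative to the 75th percentile of each array, and they can be compared between arrays for 1 gene but not between genes. In bulk RNA, fewer cells of a type and less RNA per cell cannot be told apart. WT and TKO arrays also lay in different columns of 1 slide, so that position and genotype cannot be told apart.

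**Figure D1:**
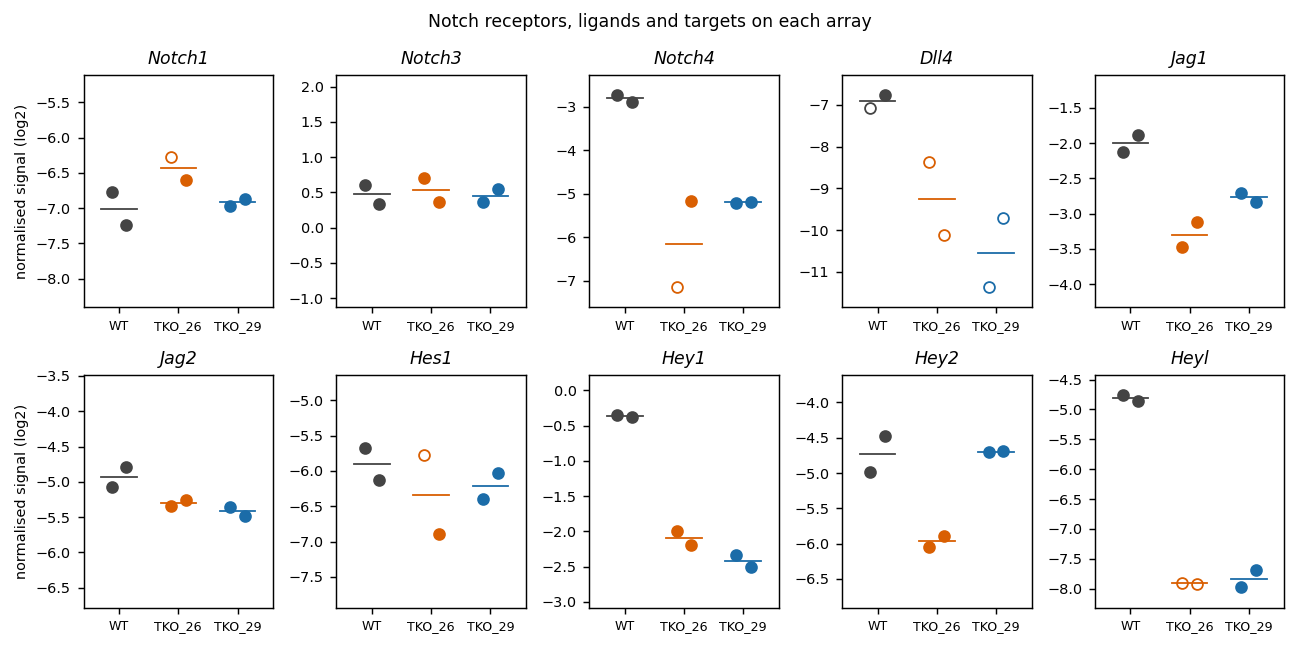
Normalised signal (log2, relative to the 75th percentile of the array) of each gene on the 2 arrays of WT, TKO_26 and TKO_29; filled points were well above background, open points were not, and bars are line means. Each panel has its own vertical range. The TKO arrays of Notch4, Hey1 and Heyl all lie below both WT arrays, those of Notch3 overlap with WT, and those of Hey2 separate TKO_26 from the other lines.

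The receptors behaved differently from each other. Notch1, the receptor used in most tissues of the embryo, and Notch3, the receptor of mural cells, are compared here with Notch4, whose expression is largely endothelial. The 250 bases before the RefSeq start of each (build GRCm38.p6; chr2:26503823-26504072, minus strand; chr17:32166891-32167140, minus strand; chr17:34564045-34564294, plus strand) are shown because the genes differ in their count of CpG, which is in capitals.
Notch1: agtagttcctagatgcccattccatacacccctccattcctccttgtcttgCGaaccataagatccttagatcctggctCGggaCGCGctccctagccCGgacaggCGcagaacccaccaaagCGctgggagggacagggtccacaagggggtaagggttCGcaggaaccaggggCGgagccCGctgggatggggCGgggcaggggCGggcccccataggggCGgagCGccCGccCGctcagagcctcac
Notch3: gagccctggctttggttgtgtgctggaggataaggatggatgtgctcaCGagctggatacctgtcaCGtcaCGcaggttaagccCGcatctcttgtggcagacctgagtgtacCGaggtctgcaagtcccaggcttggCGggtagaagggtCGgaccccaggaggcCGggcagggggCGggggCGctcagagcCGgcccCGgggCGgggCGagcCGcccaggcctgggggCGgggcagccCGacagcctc
Notch4: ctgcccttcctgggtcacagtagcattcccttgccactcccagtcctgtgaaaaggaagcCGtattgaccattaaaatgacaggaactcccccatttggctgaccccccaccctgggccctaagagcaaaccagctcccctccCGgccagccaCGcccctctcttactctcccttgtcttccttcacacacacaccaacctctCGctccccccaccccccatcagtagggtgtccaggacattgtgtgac
The window of Notch4 held 4 CpG, against 16 for Notch1 and 17 for Notch3. The median over 32851 mouse windows of this length was 6, and 37.8% of windows held fewer than that of Notch4, 74.6% fewer than that of Notch1 and 76.5% fewer than that of Notch3. The windows of the ligands held 14 (Dll4), 20 (Jag1) and 54 (Jag2) CpG. These counts describe the sequence alone.

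Notch4 stood at -2.72 and -2.88 on the WT arrays. It stood at -7.14 and -5.17 on the arrays of TKO_26 and at -5.21 and -5.19 on those of TKO_29. All 4 TKO arrays lay below both WT arrays, and TKO_26 replicate 1 lay far below the rest and was not above background. The difference was -2.40 ± 0.64 (SE, n = 2 arrays per line; limma adjusted p = 0.0428), or 5.26-fold, in TKO_29. In TKO_26 it was -3.35 ± 0.64 (limma adjusted p = 0.0241). As a bound this is at least 7.48-fold, with replicate 1 counted at the lowest signal well above background on its array. On replicate 2 alone the difference in TKO_26 was -2.37. The TKO_26 arrays were 1.98 apart, against 0.16 in WT and 0.02 in TKO_29. Without TKO_26 replicate 1 the mean difference of the lines was -2.38 and the call held. The call was lost without WT replicate 1 (-2.80), WT replicate 2 (-2.95), TKO_29 replicate 1 (-2.87) or TKO_29 replicate 2 (-2.88), and with quantile normalisation (-2.92), all with a size close to the -2.87 of the main setting. It was also lost without a filter on dim probes (limma adjusted p = 0.0995 in TKO_26 and 0.127 in TKO_29).

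Notch3 was the receptor whose level moved least. It stood at 0.60 and 0.34 in WT, at 0.70 and 0.36 in TKO_26 and at 0.36 and 0.55 in TKO_29. The arrays of the 3 lines overlapped. The difference from WT was 0.06 in TKO_26 (95% confidence interval -0.42 to 0.54) and -0.02 in TKO_29 (-0.50 to 0.46), so that a 2-fold change of this probe lay outside both intervals. The mean difference of the lines, 0.02, turned negative when certain single arrays were left out, at most to -0.11 (WT replicate 2).

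Notch1 was dim. Its brighter probe stood at -6.77 and -7.24 in WT, at -6.27 and -6.59 in TKO_26 and at -6.97 and -6.87 in TKO_29, and was above background on all arrays but TKO_26 replicate 1. TKO_26 lay above both WT arrays and TKO_29 within their range. The difference was 0.57 (95% confidence interval 0.02 to 1.13; limma adjusted p = 0.123) in TKO_26 and 0.09 (-0.47 to 0.64; limma adjusted p = 0.765) in TKO_29. The other Notch1 probe was not well above background on any array. The brighter probe of Notch2, the remaining receptor (chosen with its values in view), was above background on all arrays. It differed by 0.24 in TKO_26 and 0.05 in TKO_29 without passing.

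Of the ligands 0 passed in both lines. Dll4, the Delta ligand of arterial and tip endothelium, stood at -7.08 and -6.76 on the WT arrays, of which replicate 2 was above background. It stood at -8.38 and -10.11 in TKO_26 and at -11.36 and -9.71 in TKO_29, none above background. All TKO values were thus below the WT values. With Dll4 above background on 1 of the 6 arrays, neither this order nor that among the TKO arrays can be read as a difference. No fold is given for it, since 1 of the WT arrays was not above background either. When dim probes were admitted to the test the adjusted p (limma) was 0.257 in TKO_26 and 0.0862 in TKO_29.

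Jag1, a Jagged ligand of vessels, heart and inner ear, stood at -2.12 and -1.88 in WT, at -3.47 and -3.12 in TKO_26 and at -2.71 and -2.83 in TKO_29. The 3 lines did not overlap, with WT highest, TKO_29 next and TKO_26 lowest. The decrease was 2.46-fold in TKO_26 (-1.30 ± 0.18, SE; limma adjusted p = 0.00974) and 1.70-fold in TKO_29 (-0.77 ± 0.18; limma adjusted p = 0.0289). The second of these passed the test of difference but not the 2-fold threshold. Without a filter on dim probes the call in TKO_26 was lost (limma adjusted p = 0.0642). The difference between the TKO lines was 0.53 (95% confidence interval 0.07 to 0.99; limma adjusted p = 0.186), so that they were not shown to differ.

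Jag2, the other Jagged ligand, moved less. It stood at -5.07 and -4.79 in WT, at -5.35 and -5.26 in TKO_26 and at -5.36 and -5.48 in TKO_29. All TKO arrays lay below both WT arrays, by a small margin. The difference was -0.37 (95% confidence interval -0.76 to 0.01; limma adjusted p = 0.142) in TKO_26 and -0.49 (-0.88 to -0.10; limma adjusted p = 0.0597) in TKO_29.

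**Figure D2:**
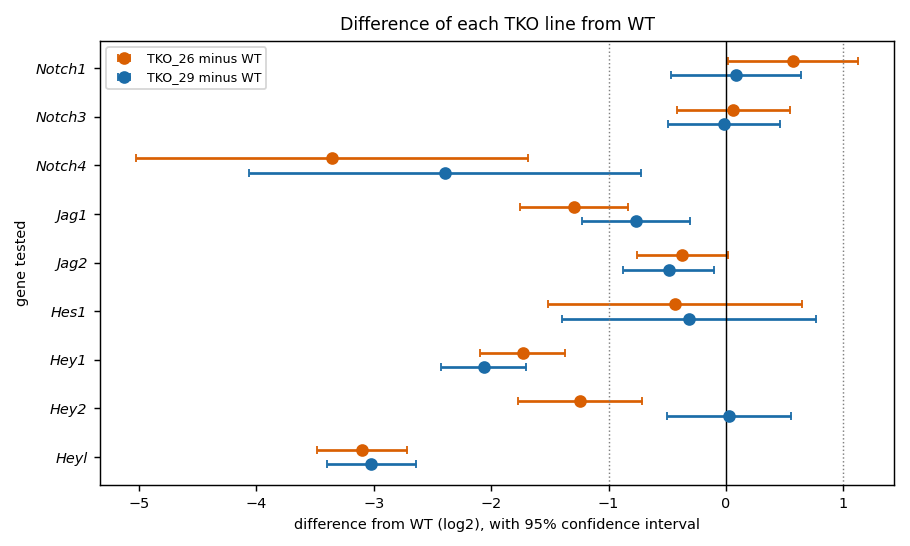
Difference of TKO_26 (orange) and TKO_29 (blue) from WT on the log2 scale for the 9 genes tested, with 95% confidence intervals from the limma fit of 6 arrays; dotted lines mark 2-fold. The whole intervals of Hey1 and Heyl lie beyond 2-fold in both lines, those of Notch4 are wide and in TKO_29 reach to -0.73, and that of Hey2 excludes 0 in TKO_26 and includes it in TKO_29.

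The targets divided into a pair that fell, Hey1 and Heyl, and a pair that did not fall in both lines, Hes1 and Hey2. RBPJ binds a core of TGGGAA, which is part of the longer GTGGGAA. Both strands of the 250 bases before the start were searched. The core was present in 21.6% of the 32851 windows and the longer form in 5.42%. The RefSeq table gave a window for 7 of the 10 genes, and of these Hey2 held both forms and the other 6 held neither. The table gave none for Hes1, Hey1 and Heyl. Hey2 (chr10:30842784-30843033, minus strand) is shown beside Hes5 (chr4:154960673-154960922, plus strand), a Hes gene of neural progenitors that was chosen after its values were seen, because both hold the motif and neither fell in both TKO lines. Capitals mark the core on either strand.
Hey2: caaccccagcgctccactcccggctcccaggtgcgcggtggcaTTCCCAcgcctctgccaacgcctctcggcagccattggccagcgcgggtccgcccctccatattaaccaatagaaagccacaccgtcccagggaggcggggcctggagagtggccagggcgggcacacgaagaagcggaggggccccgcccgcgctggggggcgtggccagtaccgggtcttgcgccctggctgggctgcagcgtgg
Hes5: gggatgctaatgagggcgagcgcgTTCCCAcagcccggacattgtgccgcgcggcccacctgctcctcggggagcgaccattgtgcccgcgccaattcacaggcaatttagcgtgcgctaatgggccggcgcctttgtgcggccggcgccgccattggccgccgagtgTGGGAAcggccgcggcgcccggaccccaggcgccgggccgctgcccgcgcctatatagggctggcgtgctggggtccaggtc
The core of Hey2 began 207 bases before the start. The 2 cores of Hes5 began 226 and 82 bases before it. The AP-1 motif TGANTCA, present in 6.75% of windows, was found in 0 of the 7 windows. A match describes the letters only.

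Hey1, a Hey repressor of endothelium and heart, stood at -0.35 and -0.37 in WT, at -1.99 and -2.20 in TKO_26 and at -2.33 and -2.51 in TKO_29. It was above background on all 6 arrays, and no TKO array came near the WT arrays. It fell 3.33-fold in TKO_26 (-1.73 ± 0.14, SE; limma adjusted p = 0.00240) and 4.18-fold in TKO_29 (-2.06 ± 0.14; limma adjusted p = 0.00143). The interval of the difference between the TKO lines, -0.69 to 0.03, included 0. Hey1 was called in both lines under each of the 15 alternative settings tried. Its mean difference ranged from -2.08 to -1.82 among them.

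Heyl, a Hey gene expressed in smooth muscle and mural cells, stood at -4.76 and -4.86 in WT, at -7.90 and -7.92 in TKO_26 and at -7.98 and -7.68 in TKO_29. Both WT arrays lay well above the 4 TKO arrays, which were close together. The arrays of TKO_29 were above background and those of TKO_26 were not. Heyl fell 8.11-fold in TKO_29 (-3.02 ± 0.15, SE; limma adjusted p = 7.93e-04) and at least 4.82-fold in TKO_26 (-3.10 ± 0.15; limma adjusted p = 7.93e-04). With normexp background correction the mean difference was -1.67 and the call in TKO_26 was lost. With the authors' matrix values it was -1.72, and both calls held.

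Hey2, the Hey gene of ventricular muscle and arterial endothelium, stood at -4.98 and -4.47 in WT. It stood at -6.05 and -5.89 in TKO_26 and at -4.71 and -4.69 in TKO_29. The arrays of TKO_29 lay between the WT arrays, while both arrays of TKO_26 lay below every other array. The difference was -1.24 ± 0.20 (SE; limma adjusted p = 0.0157), or 2.37-fold lower, in TKO_26 and 0.03 ± 0.20 (limma adjusted p = 0.930) in TKO_29. Between the TKO lines it was 1.27 (95% confidence interval 0.74 to 1.80), with a limma adjusted p of 0.0747, where 0 of the 21421 genes (0%) were called between the lines. That adjusted p ranged from 0.0363 to 0.305 over the alternatives and was under 0.05 with the authors' matrix values, with signal demanded on all 6 arrays and with a variance trend. The call in TKO_26 was lost when WT replicate 2 (-0.99), TKO_26 replicate 1 (-1.17) or either TKO_29 array (-1.24 for each) was left out, with normexp (-0.84), and without a filter on dim probes (limma adjusted p = 0.0859).

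Hes1, the most widely used Hes target, stood at -5.68 and -6.13 in WT, at -5.78 and -6.90 in TKO_26 and at -6.40 and -6.03 in TKO_29. The lines overlapped, and TKO_26 replicate 1, whose array was not above background for this probe, lay 1.12 above replicate 2. The difference was -0.43 (95% confidence interval -1.52 to 0.65; limma adjusted p = 0.510) in TKO_26 and -0.31 (-1.40 to 0.77; limma adjusted p = 0.576) in TKO_29. The intervals are wide enough to hold a 2-fold decrease, so these arrays do not settle whether Hes1 changed.

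TKO_26 taken by itself had 5 of the 9 genes lower (Notch4, Jag1, Hey1, Hey2 and Heyl), against 7.79% of all genes, and 0 higher, against 5.6%. TKO_29 by itself had 3 lower (Notch4, Hey1 and Heyl), against 11.2%, and 0 higher, against 8.16%. The TKO_26 count was 3 when WT replicate 2 or either array of TKO_29 was left out, with Hey1, Heyl and Jag1 called each time. The comparisons share the WT arrays. In the stricter limma fit on line averages, where a line counts once, 0 of the 9 genes passed, with adjusted p of 0.0515 for Heyl, 0.103 for Hey1 and 0.104 for Notch4. At an unadjusted p under 0.05, 3 did, as did 18.0% of all genes. After adjustment 0.752% of all genes were called lower in that fit and 0.154% higher. Between the TKO lines 0 of the 9 genes were called (limma), and 2 had an unadjusted p under 0.05, as had 22.3% of all genes. Without TKO_26 replicate 2 Notch4 was called between the lines, and it then rested on the dim array of TKO_26.

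By root mean square distance between centred profiles over the 6 arrays, among 13970 named genes, Colec11 (0.16 on the log2 scale) and Itga8 (0.17) were most like Notch4. Gamt (0.06) and Cyp1a1 (0.06) were most like Hey1, and Dlk1 (0.06) and Myh8 (0.10) most like Heyl. Dlk1, which encodes a Delta-like protein without the domain that activates Notch, is also one of the other pathway genes. On 6 arrays of 3 lines such a likeness rests mostly on the gap between WT and TKO.

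The rest of the pathway was covered by 55 other genes, of which 52 had a probe and 51 were tested. Of these 3 fell (Dlk1, Aph1b and Nrarp), 0 rose and 48 did not pass, with a median difference of -0.23, against 6.59% and 4.05% of all genes and a median of -0.04. The others had no probe matched by accession, and Hes2 was too dim to be tested.

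Nrarp, an inhibitor of Notch signalling that is itself a Notch target, stood at -4.69 and -4.79 in WT, at -6.25 and -6.23 in TKO_26 and at -5.96 and -6.17 in TKO_29. All TKO arrays lay below both WT arrays, and TKO_26 replicate 1 was not above background. It fell by 1.50 in TKO_26 and 1.33 in TKO_29 on the log2 scale (limma adjusted p = 0.00308 and 0.00342). Among the 13 genes of ubiquitin ligases, endocytosis and inhibitors it was the one that fell. With normexp it was not called. The authors' matrix values did not call it either, and the demand for signal on all 6 arrays left this probe out of the test.

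Dlk1 fell most of the pathway genes. It stood at 2.59 on both WT arrays, at -0.55 and -0.61 in TKO_26 and at -0.60 and -0.42 in TKO_29, 8.98-fold and 8.58-fold lower (limma adjusted p = 6.03e-04 and 5.64e-04). Its other probe differed by -2.89 and -2.64. Of the other ligands, Dll1 and Dll3 (chosen with their values in view) did not pass in both lines: Dll1, the Delta ligand of somites and neural progenitors, differed by -1.02 and -0.37, and Dll3, which acts in somites, by 0.81 and 0.37 in TKO_26 and TKO_29.

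Aph1b, a subunit of the gamma-secretase that releases the intracellular part of Notch, stood at -3.54 and -3.40 in WT, at -5.65 and -5.44 in TKO_26 and at -5.32 and -5.41 in TKO_29. It fell by 2.08 and 1.90 on the log2 scale (limma adjusted p = 0.00149 and 0.00165). Its other probe differed by only -0.61 and -0.15, so the probes disagree in size, and the near-identical copy Aph1c, which had no matched probe, could share signal with either. The 8 proteases and subunits tested had a median of -0.86, with 7 of them lower on average.

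Lfng, a glycosyltransferase that modifies Notch and changes which ligands it responds to, stood at -5.45 and -5.91 in WT and between -4.80 and -3.68 on the TKO arrays. No TKO array overlapped with WT. The difference was 1.44 in TKO_26 (limma adjusted p = 0.0642) and 1.34 in TKO_29 (limma adjusted p = 0.0579), so Lfng did not pass. It was called as higher with the authors' matrix values, with signal demanded on all 6 arrays, with a variance trend and without TKO_26 replicate 2. The 16 genes of the nuclear complex and its corepressors gave no call (0), their largest mean difference being that of Ctbp1 (-0.50 and -0.93). Rbpj itself (also chosen with its values in view) differed by -0.37 and -0.09 on its brighter probe, and its TKO_26 arrays were 1.65 apart. Among the other Hes genes, Hes7, the oscillating repressor of somite formation, differed by -0.30 and -0.99. Hes5 differed by 0.52 and 0.74, lay above WT on all 4 TKO arrays and stayed under 2-fold.

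**Figure D3:**
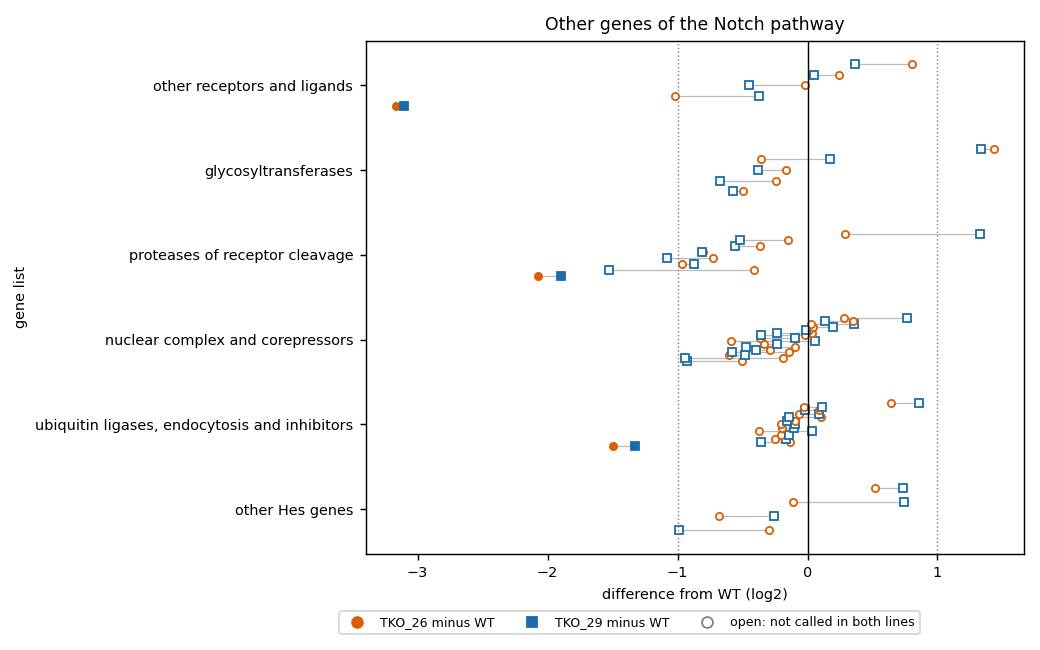
Difference of TKO_26 (circles) and TKO_29 (squares) from WT on the log2 scale for the 51 other pathway genes tested, grouped by role, 1 line per gene; filled symbols are genes called in both lines, and dotted lines mark 2-fold. The 3 filled pairs are Dlk1, Aph1b and Nrarp, and most other genes lie within 2-fold.

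Markers of cell types were set beside these genes, on lists chosen with earlier results of these data known. The counts of every list are to be read against the 6.59% of all genes that fell and the 4.05% that rose. Of 12 endothelial markers 10 fell, among them Tie1 (at least 73.9-fold) and Sox18 (at least 50.1-fold), with a median of -4.44. Pecam1 and Kdr did not fall in both lines, and 1 of the 12 was higher on average. The summed relative signal of the list was 8.40 to 10.2 in WT, 3.42 to 3.74 in TKO_26 and 2.51 to 2.86 in TKO_29. Such sums, here and for the lists below, weigh the brightest probes most, called or not, and give no share of cells. Emcn, Sox7 and Tie1 were not above background on any TKO array, so they entered the test through WT alone. The same held for Gja5 (arterial), Afp and Apob (yolk sac endoderm) and Elf5 (trophoblast). Of 8 arterial markers 4 fell, with Gja5 at least 50.5-fold and Gja4 14.4-fold lower. Efnb2, Unc5b, Sox17 and Bmx did not fall in both lines, and 1 of the 8 was higher on average. The summed arterial signal was 5.21 to 5.35 in WT, 3.57 to 4.30 in TKO_26 and 3.65 to 4.13 in TKO_29. Of 4 venous markers Aplnr and Nrp2 fell, Nr2f2 and Ephb4 did not fall in both lines, and 1 was higher on average. The endothelial, arterial and venous markers stand beside Notch4 and Hey1, which fell, and Dll4, which was too dim to be tested. The part of the markers in those results was not tested.

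Of 8 mural and smooth muscle markers 3 fell, Rgs5 (at least 18.8-fold), Pdgfrb (9.06-fold) and Acta2, while the list had a median of -0.63. Its summed signal was 17.7 to 23.2 in WT, 12.3 to 14.2 in TKO_26 and 8.01 to 13.1 in TKO_29, and 0 of the 8 were below background on all TKO arrays. These stand beside Heyl, which fell, and Notch3, which differed by at most 0.06; their part was not tested. Of 9 heart muscle markers 8 fell, Myl7 at least 209.6-fold and Hand2 at least 92.0-fold, with a summed signal of 12.5 on both WT arrays, 0.29 to 0.34 in TKO_26 and 0.28 to 0.30 in TKO_29. These stand beside Hey1, which fell, and Hey2, which in TKO_29 had a difference of 0.03; their part was not tested.

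Of 6 neural markers tested Tubb3 fell 3.66-fold and 0 rose, with a median of -0.54 and a summed signal of 1.07 to 1.25 in WT, 0.66 to 0.73 in TKO_26 and 0.68 to 0.74 in TKO_29. Of 5 paraxial mesoderm markers Pax3 rose 3.54-fold and Meox1 fell 10.6-fold. Of 8 pluripotency markers 3 rose, with Dppa3 5.15-fold and Nanog 4.06-fold higher, and 0 fell. All 6 yolk sac endoderm markers fell, Afp at least 29.7-fold and Cubn at least 46.7-fold, as did 4 of 5 trophoblast markers tested, with Prl3b1 at least 177-fold and Prl3d1 at least 37.0-fold lower.

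**Figure D4:**
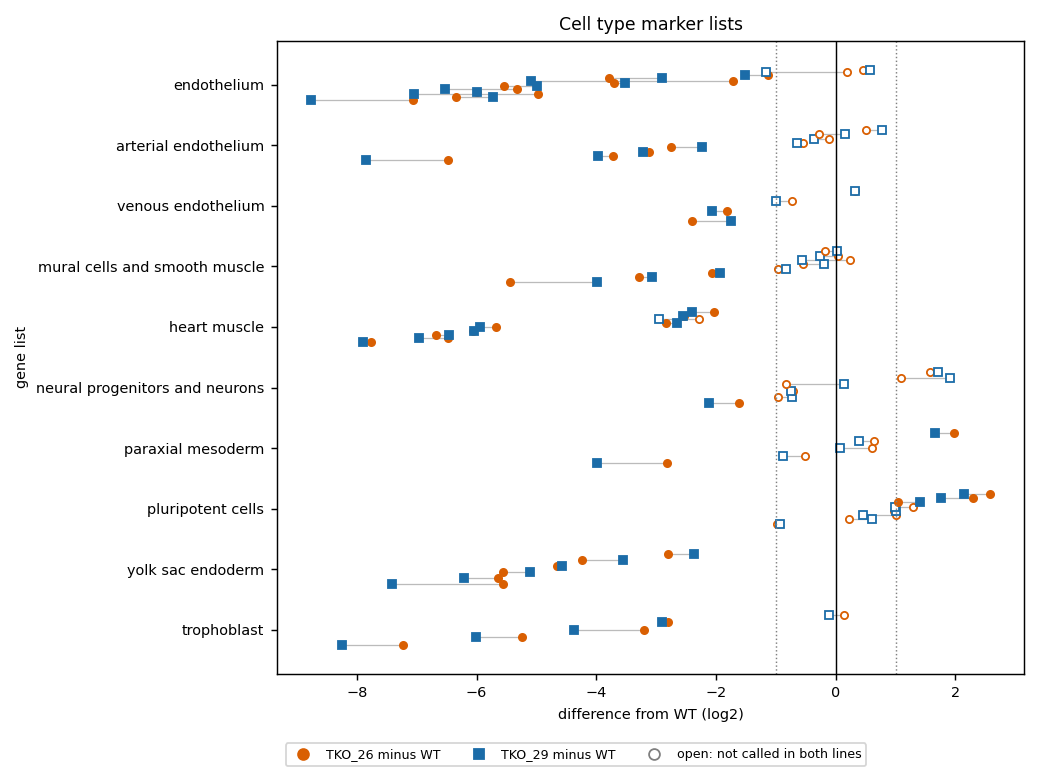
Difference of TKO_26 (circles) and TKO_29 (squares) from WT on the log2 scale for the tested markers of 10 cell types, 1 line per gene; filled symbols are genes called in both lines, and dotted lines mark 2-fold. Endothelial, heart, yolk sac and trophoblast markers lie mostly to the left, while pluripotency markers lie mostly to the right.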

How the data were processed

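Agilent Feature Extraction 10.5.1.1 wrote the scanner files, per the file headers. Their deposited intensity per spot has the background removed and spatial trends corrected, with no step across arrays. An alternative used the authors' matrix of log2 values, made by steps that were not stated. Its columns correlated at 0.995 or more with the log2 median signal of their own arrays, but the column of TKO_29 replicate 1 did so no better than with another array (0.9962 against 0.9963).

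Control spots and outlier spots were left out, saturated spots kept and repeated spots averaged. The log2 processed signal was set against the 75th percentile of 19178 probes that were well above background on all 6 arrays. Testing required a probe to be well above background on the 2 arrays of 1 or more lines, and the brightest probe stood for its gene. Accessions were matched to a RefSeq table of GRCm38.p6 (49.4% of probes named).

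limma 3.58.1 in R 4.3.3 was fitted to 6 arrays in 3 groups (3 residual degrees of freedom) and to line averages (1 residual degree of freedom, WT assumed to vary like the TKO lines). The fits were tested on simulated data. Scanner files hold no mean signal, so normexp (offset 50) used median signals. Bounds ("at least") set the brighter line's mean against, per array, the higher of the gene's own and the lowest signal well above background. That floor is not strict: Hes1 was not above background at a signal of 119 on TKO_26 replicate 1, where the floor was 86.5.

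Genes named were the 10 genes, the Tet genes, per pathway list the genes called or the largest difference, up to 2 called markers per cell type and the 2 nearest profiles. Acta2, and markers above background on no TKO array, were named besides, with their values in view. So were the endothelial, arterial and venous markers that did not fall. Others are said to be chosen with their values in view. The members and lists were chosen with earlier results of these data known. Alternatives were another percentile, quantile normalisation, normexp, the matrix, 2 filters, probe means, a replicate block, a variance trend and leaving out each array. Precision is limited by how few arrays and lines there are.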

Additional observations from a re-analysis of the deposited data

How the results depend on the processing

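The count of the 10 genes called in both lines, 3, was 1 with signal demanded on all 6 arrays, which removes Notch4 and Heyl from the test, and 2 to 3 when single arrays were left out. The TKO_26 count, 5, was 3 with normexp, 2 without a filter on dim probes and 3 with signal on all 6 arrays, and 3 to 5 without single arrays. The TKO_29 count, 3, was 1 with signal on all 6 arrays and 2 to 3 without single arrays. On line averages the count, 0, was 3 with normexp, 3 with the authors' matrix values, 3 with a variance trend, 1 with the mean of a gene's probes and 0 to 3 without single arrays (3 without TKO_26 replicate 1, 2 without TKO_29 replicate 1, 1 without WT replicate 2). Between the TKO lines the count, 0, was 1 with the matrix values, 1 with signal on all 6 arrays, 1 with a variance trend (Hey2 each time) and 0 to 1 without single arrays. The count of other pathway genes, 3, was 2 with normexp (Aph1b and Dlk1), 4 with a variance trend and 3 to 4 without single arrays. With the matrix values and with signal on all 6 arrays it stayed at 3, but Lfng, which was higher, took the place of Nrarp.

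The sign of Notch3, which was not called, turned without WT replicate 2 (-0.11), TKO_26 replicate 1 (-0.06) and TKO_29 replicate 2 (-0.03), in a range of -0.11 to 0.15. For the mean of the 2 TKO lines, the other 8 genes tested kept their sign under every alternative that tested them. In single lines, values that were not called turned sign for Notch1 in TKO_29 (-0.34 with normexp, -0.14 without WT replicate 2), Hes1 in TKO_26 (0.13 without TKO_26 replicate 2), Hey2 in TKO_29 (-0.15 with normexp, -0.23 without WT replicate 1) and Notch3 in either line. Notch4 lost its call under 7 of 14 alternatives, and Heyl under 1 of 14. The main fit did not pair same-numbered arrays, whose deviations correlated at 0.17, -0.16 and -0.23. With the replicate number as a block the count in both lines was 2 (Hey1 and Heyl), the TKO_29 count 2, the TKO_26 count 5, and Notch4 (mean difference -2.87) had an adjusted p (limma) of 0.0563 in TKO_29. Rises made up 25.5% of all genes called in both lines with normexp, against 38.0%. All genes called in both lines numbered 2279, against 1195 with normexp, 1281 without a filter and 1186 with signal on all 6 arrays. The median of all genes moved from -0.04 to -0.14 with normexp and to -0.24 without a filter. The causes were not tested. Signal over background limits Dll4, Notch1, Hes1 and Heyl, and Notch4 on TKO_26 replicate 1.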
